A study of Drosophila melanogaster with 12 samples.

Results

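The genes described here are the receptors with which the fruit fly Drosophila melanogaster smells and tastes: the odorant receptors (Or), the ionotropic receptors (Ir) and the gustatory receptors (Gr). They were picked by symbol from a table of 24228 features, as Orco and every symbol that begins with Or, Ir or Gr followed by a digit and a lower-case letter, with Gr59f left out. This gave 185 genes, of which 60 were Or, 66 Ir and 59 Gr. Enough counts for a test were present for 54 of the 185 (28 Or, 19 Ir and 7 Gr), 131 stayed below the filter on low counts, and 18 of those 131 had no count in any library.

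PolyA RNA of whole heads of adult ORE-R flies was sequenced in 12 libraries, each made from 200 heads pooled. Newly eclosed flies of both sexes spent 3 to 5 days together and then 7 days either alone or with flies of their own sex, 25 to a group. The 4 groups, isolated females, group-housed females, isolated males and group-housed males, had 3 libraries each and shared genotype, tissue and the first days of mixed housing. Replicate 0 of every group carried the label batch 1 and replicates 1 and 2 the label batch 2, and no label tells whether the pools of a group were reared apart. A p-value here therefore reflects the scatter among these 12 libraries, which could be technical.

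Or proteins are ion channels of the antenna and maxillary palp, each built from a tuning receptor and the shared co-receptor Orco. Ir proteins descend from ionotropic glutamate receptors and join a tuning receptor with the co-receptors Ir8a, Ir25a, Ir76b or Ir93a, and they detect acids, amines, humidity and temperature. Gr proteins sit mostly in taste neurons of the proboscis, legs and wings, where they detect sugars and bitter compounds, and a pair of them, Gr21a and Gr63a, forms the carbon dioxide receptor of the antenna.

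Counts over features ranged from 2584050 to 17122099 per library. Isolated females replicates 1 and 2 were the shallowest, at 2584050 and 3224485 counts, and the column of isolated males replicate 1, with 14535524, is marked as merged in the deposited table. Receptors with at least 3 counts numbered 107 of 185 in group-housed females replicate 0 and 39 in isolated females replicate 1. At an equal depth of 2584050 counts, 57.8 to 64.9 receptors would be expected with at least 3 counts in the 4 libraries of batch 1 and 36.5 to 54.5 in the 8 of batch 2. Head tissue was present by its markers: the summed level of 5 neuronal genes was 3070 to 4650 CPM (counts-per-million units) and that of 7 photoreceptor genes 9004 to 12348 CPM in the 12 libraries.

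A single gene supplied a large share of each antennal family: Orco held 20.9% to 30.5% of the Or counts of a library and Ir76a 17.5% to 32.2% of the Ir counts, while Gr28b held 9.62% to 26.1% of the Gr counts. Summed over a family and set against the library total, the Or genes reached 73.1 to 232 CPM, the Ir genes 80.5 to 213 CPM and the Gr genes 15.5 to 39.1 CPM in the 12 libraries. Orco had the highest level per length of the Or family at 18.7 CPM per kilobase of exon, ahead of Or43b (10.4), Or22a (4.27), a receptor for fruit esters, Or1a (4.23) and Or47a (3.77), all as mean CPM per kilobase. Among the Ir genes Ir76a, a receptor for amines, stood first at 16.4 CPM per kilobase, followed by Ir62a (10.5), the co-receptors Ir25a (6.73) and Ir76b (5.04) and the moist-air receptor Ir68a (3.49). The Gr genes were lower, led by Gr61a, a sugar receptor, at 1.77 CPM per kilobase, Gr63a (1.72), the sugar co-receptor Gr64f (1.63) and the bitter receptors Gr33a (1.43) and Gr32a (1.42).

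Some of these levels are uncertain, because no source used here gives the strand setting of the counting. In the BDGP6.54 annotation, exons of 8 of the 54 tested receptors overlap another gene and 8 more lie inside an intron of another gene, which leaves 38 clear. Or43b overlaps Cul1, a ubiquitin ligase subunit measured at 297 CPM, on the other strand. Ir62a lies in an intron of Iml1, measured at 175 CPM, on the same strand, and Or1a in an intron of CG3777, at 6.47 CPM, also on the same strand. Ir76a overlaps CG14102 and Gr32a overlaps CG6230, both on the other strand.

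Co-receptors were measured in nearly every library. The mean over 12 libraries, on TMM-scaled library sizes as for all single genes below, was 36.4 CPM for Orco, 24.2 CPM for Ir25a, 11.6 CPM for Ir76b, 5.58 CPM for Ir8a and 1.00 CPM for Ir93a, which serves temperature and humidity sensing and had counts in 10 of the 12 libraries. Of 6 odorant receptors linked to fly pheromones, 4 could be tested: Or47b, which responds to fly fatty acid esters and promotes male courtship, at 1.87 CPM, Or67d, the receptor for the male pheromone cis-vaccenyl acetate, at 1.70 CPM, Or65a at 1.58 CPM and Or65b at 1.41 CPM. Or88a, at 0.755 CPM, and Or65c, at 0.301 CPM, were below the filter.

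Most of the listed Or genes of the larva, genes of the Ir20a clade and sugar and bitter receptors were below the filter on low counts. Of the 11 Or genes of the larva listed here, Or24a, Or59a, Or83a and Or94b had no count in 104806096 counts over all libraries. This allows a level of up to 0.0286 CPM. Or1a, Or63a and Or45b were the 3 of the list that could be tested. Among 20 genes of the Ir20a clade, linked to taste, Ir62a was the only one tested, and 3 had no count. Of 9 sugar receptors, Gr61a and Gr64f were tested, Gr43a, a fructose receptor, stood at 0.487 CPM, Gr64a at 0.42 CPM and Gr5a, the trehalose receptor, at 0.272 CPM, Gr64d had 2 counts in all, and Gr64b, Gr64c and Gr64e had none. Among 7 bitter and contact pheromone receptors, Gr32a (2.31 CPM), Gr33a (2.34 CPM) and Gr66a (1.73 CPM) were tested, while Gr93a (0.894 CPM), Gr39a (0.467 CPM), Gr89a (0.0551 CPM) and Gr68a (1 count) were not. Gr21a was measured at 0.307 CPM beside 2.53 CPM for its partner Gr63a. The tested genes had median levels of 2.13 CPM (Or), 3.6 CPM (Ir) and 2.36 CPM (Gr), against 0.243, 0.0422 and 0.105 CPM for the untested genes of the same families.

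**Figure D1:**
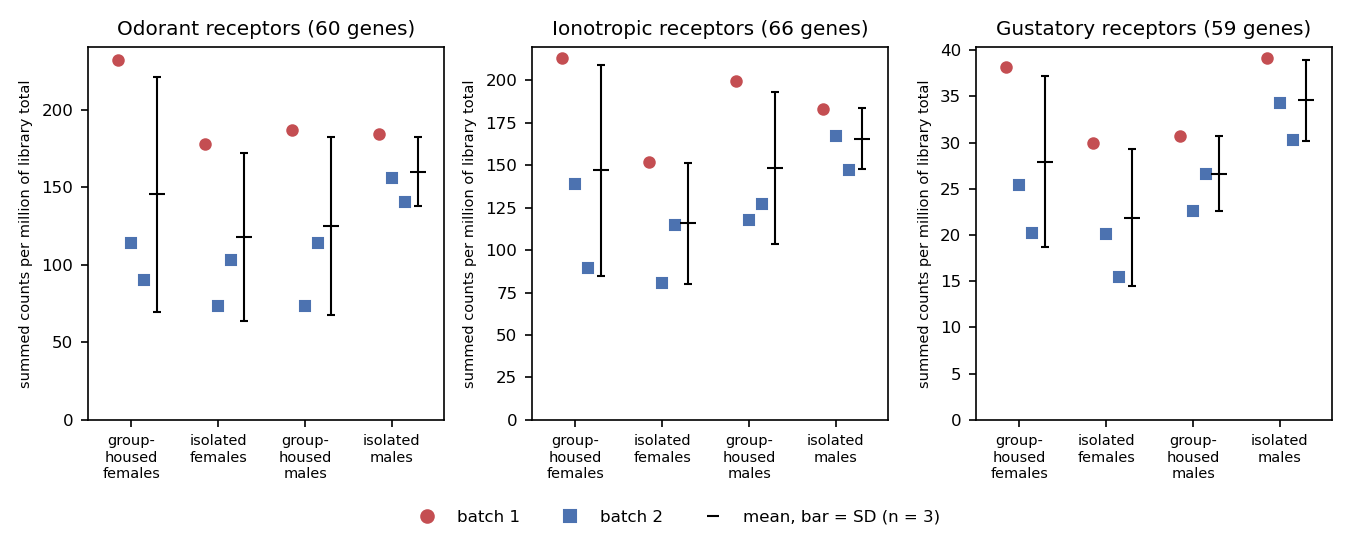
Summed level of each receptor family in CPM of the library total (y axis, from 0) by group (x axis), with a point for each library, circles for batch 1 and squares for batch 2, and a black mark with a bar for the mean and SD of 3 libraries. All 4 circles of the Or panel, 178 to 232 CPM, lie above all 8 squares, 73.1 to 156 CPM.

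More receptors were called between the batches than by housing or by sex. Several odorant receptors and 3 acid-sensing or humidity-sensing Ir genes were lower in batch 2 than in batch 1, and in each of the 4 groups the summed Or and Ir levels of both batch 2 libraries lay below those of the batch 1 library. Of the 54 tested receptors, 11 (20.4%) were lower in batch 2 past the threshold of 0.05 on the adjusted p of edgeR's quasi-likelihood test, and none was higher, against 1.9% of the 10238 features lower, 2.02% higher and 3.93% called in either direction. The libraries of the batches were apart for 14 receptors (25.9%), all lower in batch 2, against 3.35% of all features, 1.66% lower and 1.69% higher. At an unadjusted p under 0.05 there were 30 receptors (55.6%), against 19.5% of all features. This comparison was added after the data were seen. The calls took in 8 of 28 Or genes, 3 of 19 Ir genes and 0 of 7 Gr genes. The estimate was negative for 48 of the 54, with a median log2 fold change of -0.88 against -0.02 over all features.

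Orco stood at 59.2, 48.1, 56.5 and 44.0 CPM in the 4 libraries of batch 1. In the 8 libraries of batch 2 it ranged from 16.3 to 39.9 CPM, with a mean of 28.6 ± 8 CPM (SD, n = 8). The batches did not overlap, and the log2 fold change of batch 2 over batch 1 was -0.90 (SE 0.15, adjusted p = 0.00447 by edgeR).

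Among tuning receptors, Or92a, which responds to the fermentation odour diacetyl, had 8.28 ± 2.60 CPM (SD, n = 4) in batch 1 and 2.52 ± 0.979 CPM (SD, n = 8) in batch 2, a log2 change of -1.76 (SE 0.32, adjusted p = 0.00622 by edgeR). The other Or genes called lower were Or47a (-1.37), Or67c (-2.74), Or85b (-1.51) and 3 of the 4 tested pheromone-linked genes, Or67d (-1.95), Or65a (-1.79) and Or65b (-1.81), all as log2 fold change. Their edgeR adjusted p-values lay between 0.0222 and 0.0440, and in each the libraries of the batches were apart. Or47b, at -1.68 (SE 0.48), did not pass (adjusted p = 0.0611 by edgeR).

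The Ir genes called lower in batch 2 were Ir75a (-1.18), a receptor for acetic acid, Ir75c (-1.67), for other short acids, and Ir40a (-1.43), for dry air, as log2 fold change, with edgeR adjusted p-values of 0.0283, 0.0460 and 0.0283. All 19 tested Ir genes had a negative estimate, with a median of -0.96, and the 15 of the antenna among them had a median of -1. Ir76a and Ir68a were close to 0, at -0.06 (SE 0.13) and -0.03 (SE 0.21). The 3 tested Or genes of the maxillary palp had a median of -0.02. The 3 that could be tested of the 11 listed Or genes of the larva had a median of 0.01. The Gr genes with the smallest p-values were Gr33a at -1.03 (SE 0.38, adjusted p = 0.144 by edgeR), Gr64f at -0.87 (SE 0.33) and Gr66a at -0.65 (SE 0.43), and Gr61a was at 0.49 (SE 0.41). By position in the genome, the median was -0.98 for the 38 genes clear of others, -0.62 for the 8 inside introns and -0.18 for the 8 with overlapping exons.

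Other genes of the antenna were lower in batch 2 as well. The 11 antennal support genes are odorant-binding proteins and other secreted or membrane proteins around the neurons. Of these, 5 were called lower in batch 2, against 1.9% of all features called lower. The 5 were a10, a5, Obp69a, Obp83b and Obp84a, chosen for naming after their values were seen. All 11 estimates were negative, with a median log2 fold change of -0.61. Of the 3 most abundant, Os-C was at -0.82 (SE 0.24, adjusted p = 0.0817 by edgeR), the binding protein Obp83a at -0.52 (SE 0.17, adjusted p = 0.105 by edgeR) and Snmp1, a pheromone sensor in the neuron membrane, at -0.15 (SE 0.12, adjusted p = 0.510 by edgeR). The 11 genes summed to 483 to 598 CPM in batch 1 and 246 to 509 CPM in batch 2. None of the 5 neuronal, 7 photoreceptor and 6 receptor-choice transcription factor genes was called, with medians of 0.11, 0.24 and -0.07. The part of the antennal genes in the receptor values was not tested. In pooled heads, fewer cells of a type and less RNA per cell cannot be told apart.

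The count of 11 depended on single batch 1 libraries. It was 0 without group-housed females replicate 0, 1 without group-housed males replicate 0 and 2 without isolated females replicate 0. Calls fell over the whole table in the same fits, to 0.802%, 0.834% and 0.953% of all features in either direction. The median over receptors was between -0.74 and -1.07 when any library was left out.

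**Figure D2:**
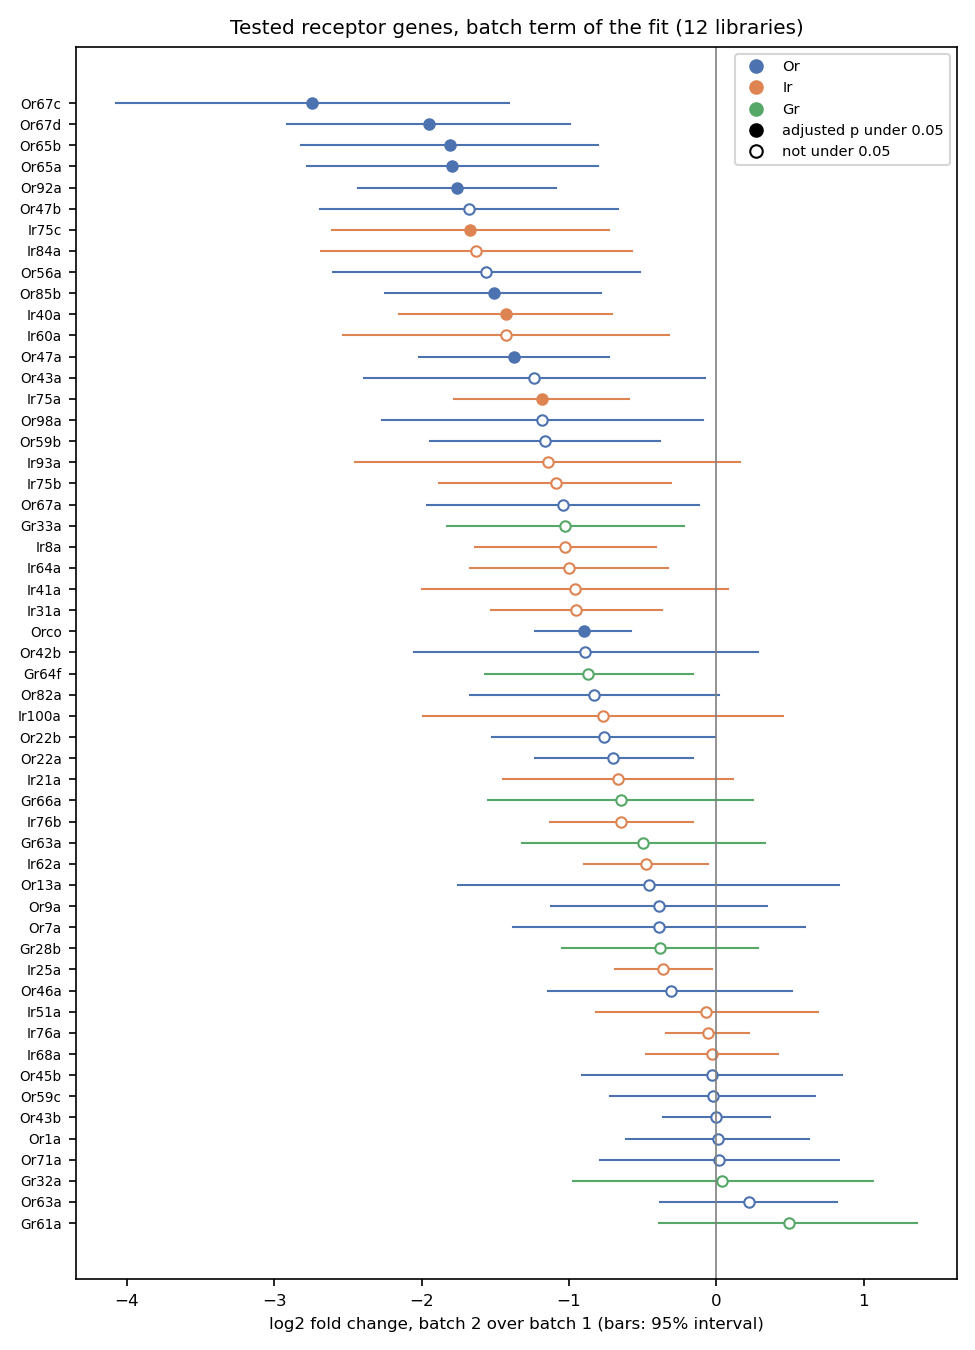
Log2 fold change of batch 2 over batch 1 (x axis) for each of the 54 tested receptors (y axis, ordered by the estimate), with 95% intervals as bars, colours for the families and filled points for an adjusted p under 0.05. The 11 filled points are all left of 0, from Or67c at -2.74 to Orco at -0.90.

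A week alone, set against a week in company, left no tested receptor called in females. The edgeR test called 0 of 54 receptors between isolated and group-housed females, while it called 3.48% of all 10238 features, 3.26% higher and 0.215% lower. DESeq2 and limma-voom also called 0, against 5.15% and 4.36% of all features. At an unadjusted p under 0.05 there were 3 receptors, or 5.56%, against 14.3% of all features. The libraries of the groups were apart for 6 receptors (11.1%), 4 lower and 2 higher in isolated females, against 16.3% of all features, 7.07% lower and 9.23% higher. The median log2 fold change over the 54 was -0.12, with 24 positive and 30 negative estimates, against -0.02 over all features, and it became 0.18 without group-housed females replicate 0 and 0.01 without isolated females replicate 1.

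The smallest p-values belonged to Or63a and Or1a, which are known as receptors of the larva. Or63a stood at 6.28, 7.94 and 6.20 CPM in group-housed females and at 2.7, 1.35 and 4.87 CPM in isolated females. All isolated females lay below all group-housed ones, and the log2 fold change was -1.17 (SE 0.41, adjusted p = 0.173 by edgeR). Or1a stood at 8.03, 5.67 and 5.58 CPM in group-housed females and at 3.02, 3.15 and 4.17 CPM in isolated females, again without overlap, with a log2 change of -0.93 (SE 0.42, adjusted p = 0.328 by edgeR). Or47a was at 0.72 (SE 0.45, adjusted p = 0.509 by edgeR).

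No co-receptor was called between the female groups. Orco had 59.2, 30.1 and 29.3 CPM in group-housed females and 56.5, 25.2 and 25.0 CPM in isolated females. The high value in each group was that of batch 1, and the log2 fold change of -0.16 had a 95% interval from -0.62 to 0.30. Ir25a was at -0.26 (SE 0.22), Ir76b at -0.22 (SE 0.33), Ir8a at -0.45 (SE 0.42) and Ir93a at -0.39 (SE 0.98) on the log2 scale, and the signs of Ir76b and Ir93a turned without isolated females replicate 1. Ir76a, the most abundant Ir gene, was at -0.35 (SE 0.19, adjusted p = 0.418 by edgeR).

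Among other Ir genes, Ir31a, a receptor for the acid 2-oxopentanoic acid, was at 0.58 (SE 0.41) between the female groups. Ir100a, a gene of very low level, stood at 1.39, 0.851 and 0.207 CPM in group-housed and at 0.324, 0 and 0 CPM in isolated females, a log2 change of -2.29 (SE 1.05, adjusted p = 0.334 by edgeR). Of the taste receptors, Gr32a, which detects bitter compounds and a male cuticular pheromone, had 2.16, 2.41 and 4.54 CPM in group-housed and 1.73, 0 and 1.04 CPM in isolated females. Its groups were apart, with a log2 change of -1.36 (SE 0.69, adjusted p = 0.385 by edgeR), and the overlapping CG6230 was at 0.27 (SE 0.14). Gr28b, linked to warmth and light sensing, was at 0.21 (SE 0.44) and Gr33a at -0.25 (SE 0.57), with signs that depended on isolated females replicate 0 and replicate 2.

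Other genes linked to the receptors or their organs were also not called between the female groups. These were 0 of 11 antennal support genes (median log2 fold change 0.15) and 0 of 4 ppk channels of taste neurons (-0.46). Of 6 transcription factors of receptor choice, 0 were called (0.03). These factors are not markers of the antenna here, with onecut at a mean of 606 CPM and Orco at 36.4 CPM. All 6 fat body genes had higher estimates in isolated females, and 4 were called, against 3.26% of all features called higher. Their summed level was 39471 to 51533 CPM against 17243 to 24559.9 CPM in group-housed females, and all 6 had counts in every library. Their part in the receptor values was not tested. The median SE over the 54 receptors was 0.55 on the log2 scale, and 0.51 in the same comparison of males. For the 5 neuronal genes the SE between the female groups was 0.18 to 0.27. Whether the larger SE of the receptors lies behind their lower share of calls in females was not tested.

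In males no receptor was called for housing either, and most estimates leaned towards higher levels in isolated flies. The edgeR test called 0 of 54, against 0.0781% of all features (0.0195% higher and 0.0586% lower). DESeq2 and limma-voom also called 0, against 0.254% and 0.107% of all features. With so few features called, 0 of 54 says little about the receptors. At an unadjusted p under 0.05 there were 2 receptors, or 3.70%, against 2.66% of all features, and 3 receptors (5.56%) had groups apart, all higher in isolated males, against 5.81% of all features, 3.19% higher and 2.62% lower. The estimate was positive for 41 of 54 receptors, with a median of 0.33 against 0 over all features; by family the medians were 0.43 for Or, 0.20 for Ir and 0.46 for Gr. When any library was left out the median over receptors lay between 0.20, without isolated males replicate 2, and 0.56, without isolated males replicate 0; without the merged library it was 0.33.

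Orco had the smallest p-value. Its level was 48.1, 16.3 and 23.5 CPM in group-housed males and 44.0, 39.9 and 39.4 CPM in isolated males. The groups overlapped, because the batch 1 library of the group-housed males was the highest of the 6. The log2 fold change was 0.62 (SE 0.21, 95% interval 0.17 to 1.06, adjusted p = 1.00 by edgeR), and within the batches the difference on the log2(CPM + 0.5) scale was -0.13 in batch 1 and 1.00 in batch 2.

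Or1a stood at 3.12, 2.00 and 5.83 CPM in group-housed males and at 6.42, 7.02 and 6.30 CPM in isolated males. The groups were apart in the direction opposite to that in females, with a log2 change of 0.85 (SE 0.39, adjusted p = 1.00 by edgeR). Or46a, a maxillary palp receptor for phenols that overlaps CG12917, had 3.97, 3.49 and 6.97 CPM in group-housed and 8.87, 10.3 and 10.8 CPM in isolated males, also apart, with a log2 change of 1.05 (SE 0.51, adjusted p = 1.00 by edgeR).

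Among Gr genes Gr33a, needed for bitter taste and for keeping males from courting males, had 2.8, 1.5 and 0.634 CPM in group-housed and 4.51, 1.93 and 3.54 CPM in isolated males. These groups overlapped, and the log2 fold change was 1.07 (SE 0.52, adjusted p = 1.00 by edgeR). Gr28b had 3.90, 4.66 and 5.45 CPM in group-housed and 5.89, 5.47 and 8.27 CPM in isolated males, which did not overlap, at 0.47 (SE 0.41), and Gr66a was at 0.69 (SE 0.57). Of the Ir genes, Ir31a was at 0.72 (SE 0.36), Ir64a, an acid receptor, at 0.65 and the co-receptors Ir76b, Ir8a, Ir25a and Ir93a at 0.47, 0.29, 0.20 and -0.44 on the log2 scale.

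For the antennal support genes in males, all 11 estimates were positive, with a median log2 fold change of 0.43, and none was called. Their summed level was 246 to 598 CPM in group-housed males and 479 to 557 CPM in isolated males. Genes of the male reproductive tract summed to 6.83, 14.2 and 163 CPM in group-housed males, with 163 CPM in the batch 1 library. In isolated males they summed to 0.941 to 1.10 CPM. Of the 7 genes listed, 2 had enough counts for a test, and only through the group-housed males. Both were called lower in isolated males, against 0.0586% of all features, a direction favoured by the filter on low counts. The part of the antennal support and male reproductive tract genes in the receptor values was not tested.

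**Figure D3:**
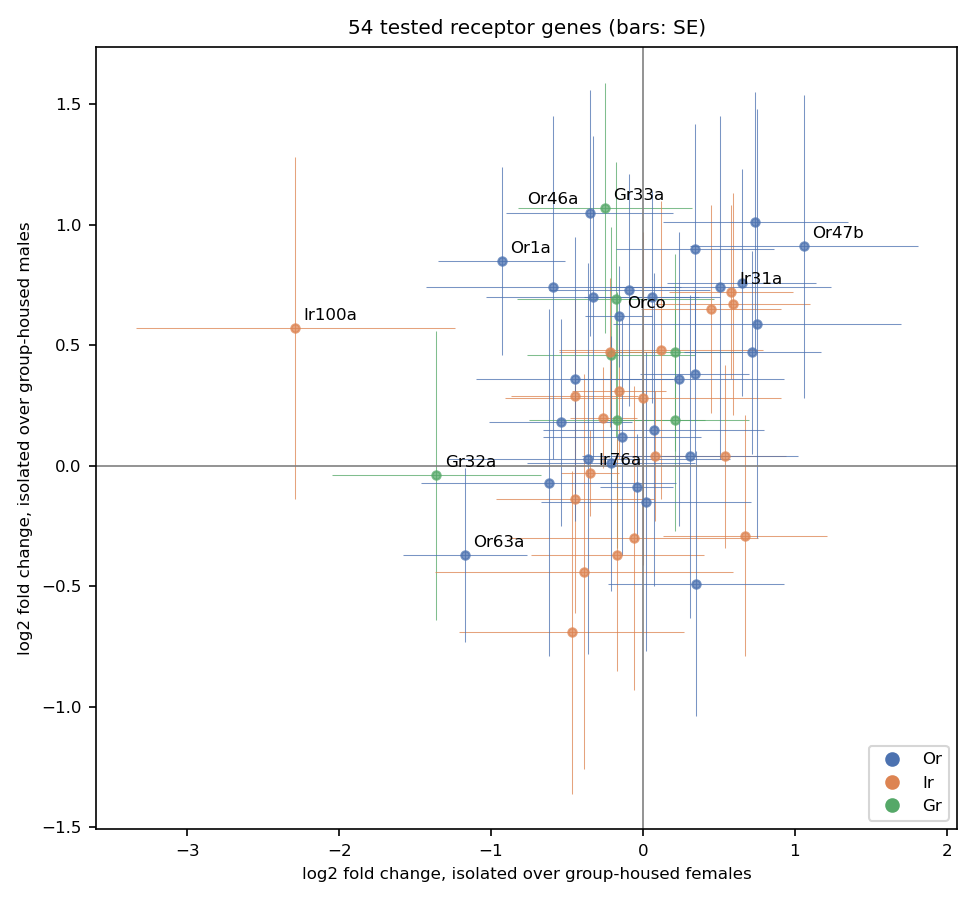
Log2 fold change of isolated over group-housed flies in females (x axis) and in males (y axis) for the 54 tested receptors, coloured by family, with SE as bars. In males 41 points lie above 0, and Or1a sits at -0.93 in females and 0.85 in males; no point passed the threshold in either sex.

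**Figure D4:**
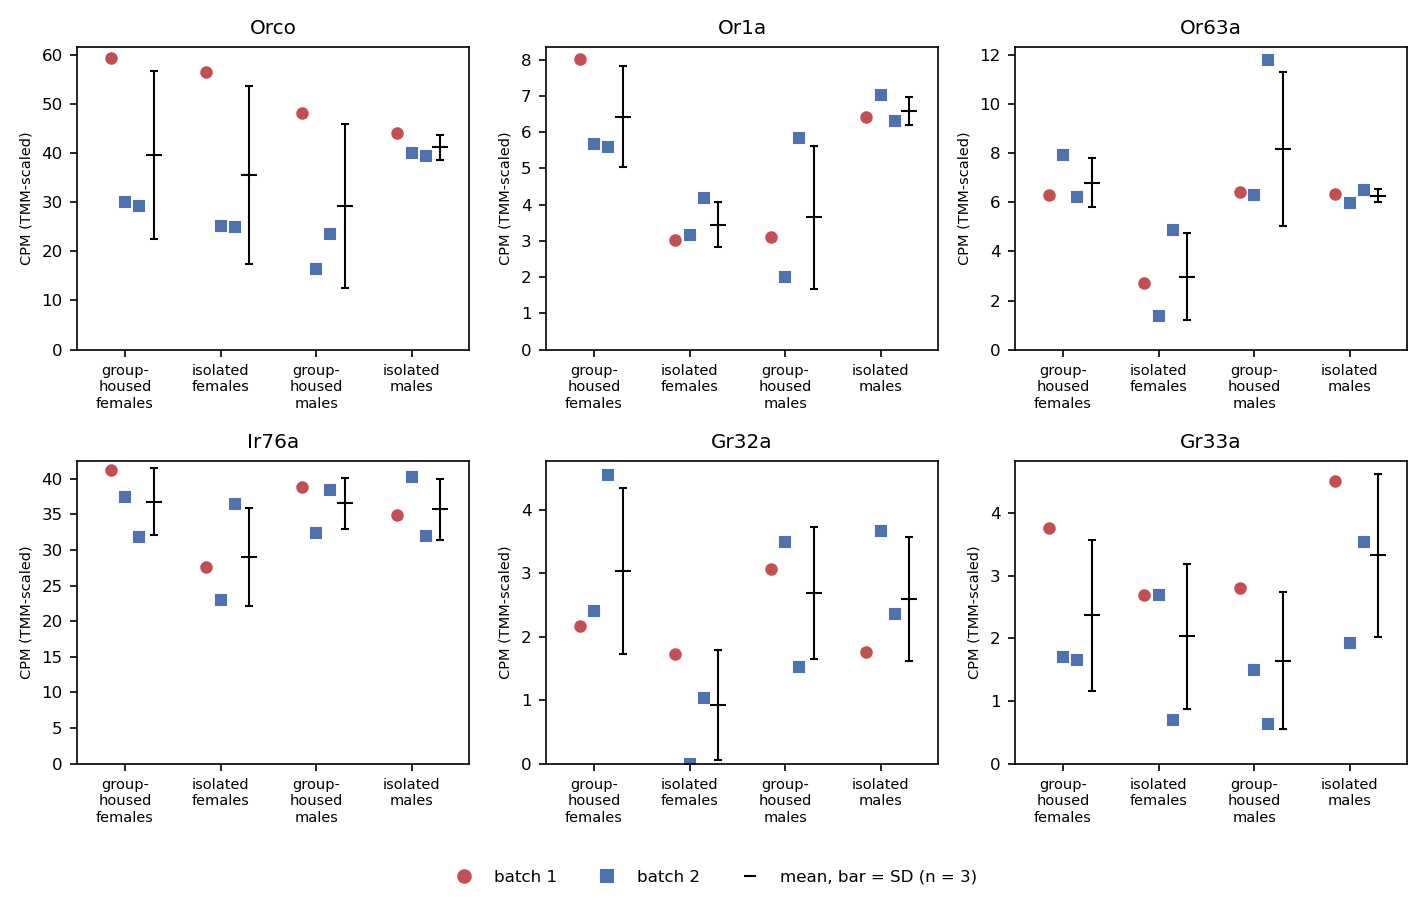
CPM on TMM-scaled library sizes (y axis, from 0) of 6 receptors in the 4 groups (x axis), with circles for batch 1, squares for batch 2 and a mark with a bar for the mean and SD of 3 libraries. In the Orco panel the batch 1 circles, 44.0 to 59.2 CPM, lie above all squares, and in the Or1a panel the isolated females lie below and the isolated males above their group-housed counterparts.

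As whole families and on library totals, the mean summed levels of isolated flies were below those of group-housed flies in females and above them in males, and the libraries of the groups overlapped in each family and sex. The ratio of summed levels, isolated to group-housed, was 0.812 for Or, 0.786 for Ir and 0.783 for Gr genes in females. For Or genes this set 118 ± 53.8 CPM (SD, n = 3) against 145 ± 75.7 CPM (SD, n = 3). In males the ratios were 1.28 for Or, 1.12 for Ir and 1.30 for Gr genes, and the Gr sums of 34.6 ± 4.43 CPM and 26.6 ± 4.08 CPM (SD, n = 3 each) overlapped at 30.3 and 30.7 CPM. On the TMM-scaled library sizes used for single genes, the female ratios were nearer to 1, at 0.945 for Or, 0.92 for Ir and 0.91 for Gr genes, and the male ratios were 1.26, 1.1 and 1.27. Without group-housed females replicate 0 the female ratios on library totals were 1.15, 1.01 and 0.96, so that of the Or family changed sides. Within batch 1 and batch 2 the female ratios of the Or family were 0.767 and 0.863 and the male ratios 0.984 and 1.57. For the Gr family they were 0.785 and 0.782 in females and 1.27 and 1.31 in males, and for the Ir family 0.713 and 0.853 in females and 0.916 and 1.28 in males. Batch 1 held 1 library of each group.

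Whether females and males responded differently was tested as the female response minus the male response. The edgeR test called 0 of 54 receptors, against 0.44% of all features (0.43% with a higher and 0.00977% with a lower response in females). DESeq2 and limma-voom called 0 as well, against 1.38% and 0.693% of all features. So few features were called that 0 of 54 says little about a sex difference in the receptor responses. At an unadjusted p under 0.05 there were 3 receptors (5.56%), against 7.1% of all features. Or1a had the smallest p-value, with a difference of -1.78 on the log2 scale (SE 0.58, 95% interval -3.00 to -0.55, adjusted p = 0.334 by edgeR). CG3777, in whose intron Or1a lies, was at -0.64 (SE 0.58). Orco followed at -0.78 (SE 0.30, adjusted p = 0.565 by edgeR) and Ir100a at -2.86 (SE 1.28, adjusted p = 0.656 by edgeR). Or46a was at -1.40 (SE 0.75), Gr33a at -1.31 (SE 0.77), Gr32a at -1.32 (SE 0.92), Gr66a at -0.87 (SE 0.86), Ir76b at -0.69 (SE 0.45) and Ir25a at -0.47 (SE 0.30).

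The odorant receptors linked to pheromones were not called for housing in either sex. Or47b had 1.90, 0.284 and 0.413 CPM in group-housed females and 2.92, 0 and 2.09 CPM in isolated females, with a log2 fold change of 1.06 (SE 0.75). In males it had 4.03, 0.499 and 1.27 CPM when group-housed and 4.51, 2.98 and 1.57 CPM when isolated, with a log2 fold change of 0.91 (SE 0.63). The groups overlapped in both sexes, and the highest library of each group was that of batch 1. Or67d was at 0.24 (SE 0.69) in females and 0.36 (SE 0.61) in males, Or65a at 0.31 (SE 0.71) and 0.04 (SE 0.67), and Or65b at -0.33 (SE 0.70) and 0.70 (SE 0.67). The tested sugar and carbon dioxide receptors were also uncalled: Gr64f was at 0.21 (SE 0.49) in females and 0.19 (SE 0.46) in males, Gr61a at -0.17 (SE 0.58) and 0.19 (SE 0.53), and Gr63a at -0.21 (SE 0.55) and 0.46 (SE 0.53).

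Averaged over both sexes, isolation left 0 of 54 receptors called by the edgeR test, by DESeq2 and by limma-voom. Of all features, edgeR called 2.2%, 2.08% higher and 0.117% lower, DESeq2 3.5% and limma-voom 2.77%. No receptor had all isolated libraries apart from all group-housed ones, against 0.527% of all features, 0.4% higher and 0.127% lower. At an unadjusted p under 0.05 there were again 3, against 10.9% of all features: Or63a at -0.77 (SE 0.27, adjusted p = 0.240 by edgeR), Ir31a at 0.65 (SE 0.27, adjusted p = 0.364 by edgeR) and Or82a, a receptor for geranyl acetate, at 0.88 (SE 0.41, adjusted p = 0.445 by edgeR). Or9a was at 0.70 (SE 0.34), Ir40a at 0.63 (SE 0.34), Ir64a at 0.55 (SE 0.32), Gr33a at 0.41 (SE 0.39), Gr28b at 0.34 (SE 0.30) and Gr32a at -0.70 (SE 0.45).

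Between the sexes, over both kinds of housing, Ir31a was the single receptor called, and it was lower in females. It made up 1.85% of the 54 tested receptors, against 2.46% of all features lower in females, 5.36% higher and 7.82% called in either direction. At an unadjusted p under 0.05 there were 7 receptors (13%), against 20.8% of all features. Ir31a (FBgn0051718) is a protein-coding gene of the acid-sensing antennal neurons on chromosome arm 2L, from 10405565 to 10408197 on the plus strand of BDGP6.54, with no overlapping gene. It had 4.22, 1.70 and 1.03 CPM in group-housed females and 5.62, 2.25 and 2.43 CPM in isolated females. In males it had 8.32, 4.66 and 4.31 CPM when group-housed and 9.87, 7.27 and 9.84 CPM when isolated. Within batch 1 both females lay below both males, and within batch 2 all 4 females lay below all 4 males, while the pooled values overlapped. The log2 fold change of females over males was -1.40 (SE 0.28, 95% interval -1.99 to -0.81, adjusted p = 0.00412 by edgeR), and the within-batch differences were -0.83 and -1.55 on the log2(CPM + 0.5) scale. The call was lost without the batch term (-1.24, adjusted p = 0.0511 by edgeR) and when replicate 0 stood alone for the isolated females (-1.28, adjusted p = 0.0983 by edgeR).

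Ir68a, which is needed to sense moist air, was the single receptor whose female and male libraries were apart over all 12, which is 1.85% of the receptors against 2.89% of all features, 1.12% lower and 1.77% higher in females. Females ranged from 4.97 to 8.34 CPM, with a mean of 6.5 ± 1.41 CPM (SD, n = 6), and males from 8.75 to 13.4 CPM, with a mean of 10.5 ± 1.76 CPM (SD, n = 6). The log2 fold change was -0.69 (SE 0.21, adjusted p = 0.0525 by edgeR), and it passed the threshold under 7 of 23 other settings, DESeq2 and limma-voom among them. Ir21a, which is needed to sense cooling and overlaps an antisense RNA, was at -1.08 (SE 0.37, adjusted p = 0.0946 by edgeR).

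Ir84a, a receptor for food-derived aromatic acids that promotes male courtship, was at -1.32 (SE 0.53, adjusted p = 0.162 by edgeR); it was chosen for naming after its values were seen. Its 6 female libraries ranged from 0 to 1.54 CPM and its 6 male ones from 0.394 to 2.37 CPM, which overlap. Ir100a was at -1.49 (SE 0.65), and 17 of the 19 tested Ir genes had a negative estimate, with a median of -0.27 against -0.02 over all features. An exception was Ir8a, the co-receptor of the acid-sensing Ir genes, at 0.60 (SE 0.29, adjusted p = 0.253 by edgeR), higher in females by the estimate.

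For the odorant and gustatory receptors no gene passed between the sexes. Or63a was at -0.65 (SE 0.27, adjusted p = 0.184 by edgeR), Or47b at -1.06 (SE 0.49, adjusted p = 0.229 by edgeR) and Or42b, a vinegar-odour receptor, at -1.07 (SE 0.55). Gr28b was at -0.57 (SE 0.31), Gr32a at -0.53 (SE 0.45) and Gr63a at 0.38 (SE 0.38). The medians were -0.06 for Or and -0.30 for Gr genes. Of the 4 ppk channels of taste neurons, ppk29, which acts in pheromone-sensing taste neurons, was lower in females at -1.32 (SE 0.37, adjusted p = 0.0376 by edgeR), and of 11 antennal support genes none was called, with a median of -0.12. All 6 fat body genes were higher in females, with a median of 4.71, and their part in the receptor values was not tested.

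**Figure D5:**
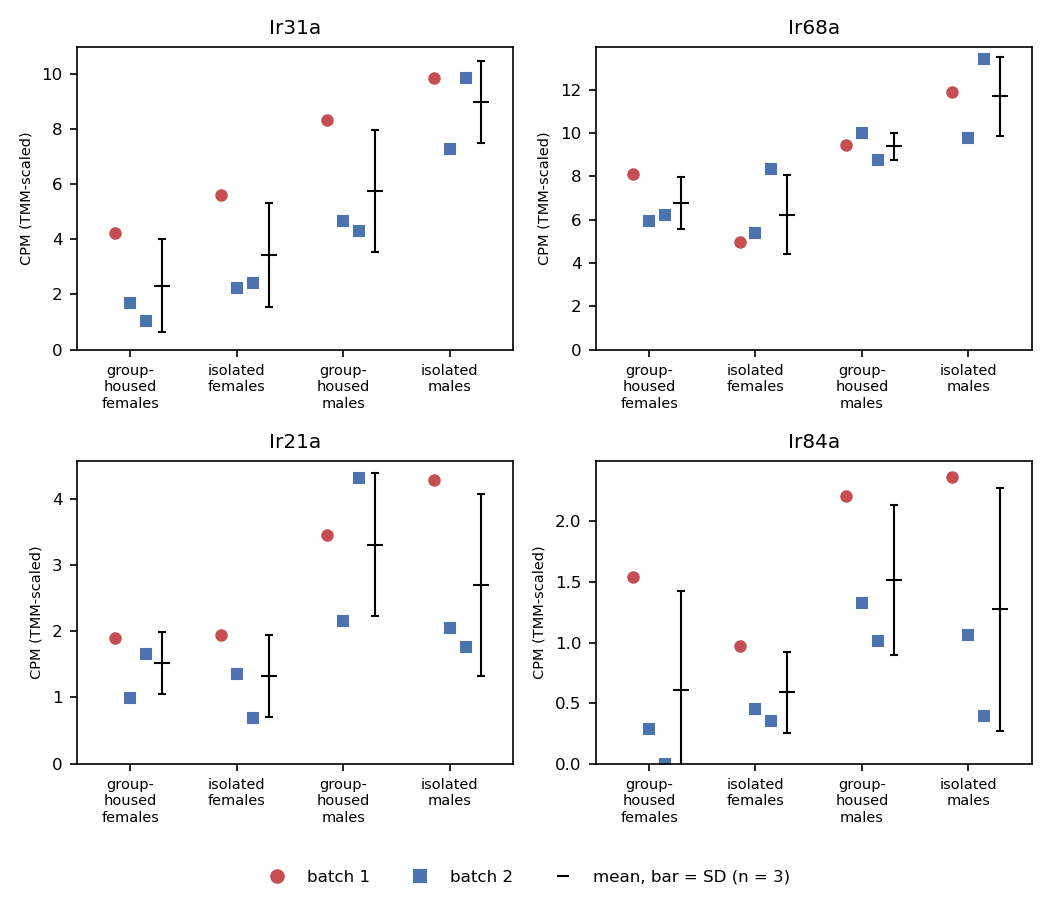
CPM on TMM-scaled library sizes (y axis, from 0) of Ir31a, Ir68a, Ir21a and Ir84a in the 4 groups (x axis), with circles for batch 1, squares for batch 2 and a mark with a bar for the mean and SD of 3 libraries. In the Ir68a panel the females, 4.97 to 8.34 CPM, lie below all males, 8.75 to 13.4 CPM, and in the Ir31a panel the females lie below the males of the same batch.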

How the data were processed

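The authors deposited raw counts, as whole numbers without scaling, with a column per library. Tools listed in the submitters' processing notes, with no role stated, are HTSeq 2.0.5, STAR 2.7.10b, edgeR 4.4.1, Picard 2.27.5 and R 4.4.0. The sources used here do not give the genome build, the annotation release or the strand setting. Lines naming no gene held 10.2% to 13.2% of a column and were left out, as was 1 column of numbers not tied to a sample. Within a group, counts of any 2 libraries differed by more than sampling noise gives (chi-square over its degrees of freedom, 4.48 to 65.7), so none was merged.

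The tests used edgeR 4.0.16 and limma 3.58.1 in R 4.3.3: filterByExpr (minimum count 10, minimum total 15), TMM scaling, glmQLFit (robust) over all 12 libraries with a mean for each of the 4 groups plus a batch term (7 residual degrees of freedom), and glmQLFTest with Benjamini-Hochberg adjustment over 10238 features at 0.05. An SE is the log2 fold change divided by the square root of F, and intervals are at 95%. Because TMM removes a shift shared by most genes, fold changes are relative to the bulk of the head transcriptome. Family and list sums are relative to library totals without TMM. Levels per length use the union of exons in BDGP6.54, where all 185 receptors were matched by identifier. Intervals and floors (3 counts) cover counting error only. The test was tried on simulated counts with known changes. DESeq2 1.42.0, limma-voom, other scalings, filters, batch terms and subsets of libraries were alternatives.

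The members, lists and tests were chosen with earlier results of these data known. Genes were named if they passed the threshold in a contrast, had one of the 3 smallest p-values of their family in a contrast, had one of the 5 highest levels per length of their family, or stood in the lists of co-receptors, pheromone-linked Or genes, sugar, bitter and carbon dioxide receptors, with the 3 most abundant antennal support genes beside them; other names are marked or illustrate a list.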

Additional observations from a re-analysis of the deposited data

Results flagged for a closer look

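The estimates for Or1a had opposite signs in the sexes. All 3 isolated females (3.02 to 4.17 CPM) lay below all 3 group-housed females (5.58 to 8.03 CPM). All 3 isolated males (6.30 to 7.02 CPM) lay above all 3 group-housed males (2.00 to 5.83 CPM). CG3777, in whose intron Or1a lies, was at -0.16 (SE 0.42) in females and 0.48 (SE 0.40) in males on the log2 scale. By sex, 7.07% of all features were apart and lower in isolated females, and 3.19% apart and higher in isolated males. Or1a was picked by this separation, and the share of all features apart in both sexes was not counted. The female response minus the male response was -1.78 on the log2 scale (SE 0.58), which did not pass (adjusted p = 0.334 by edgeR, 0.0791 to 1.00 over the other settings).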

How the results depend on the processing

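The counts of receptors called for isolation in females, in males, over both sexes and for the difference between the sexes stayed at 0 under every setting tried. The count between females and males, 1 of 54 as reported (7.82% of all features in either direction), varied with the setting. It was 2 of 54 with library totals (7.94%), with DESeq2 (10.5%) and with the replicate block (9.07%). Without a filter on low counts it was 2 of 167 (7.6%), Gr9a beside Ir31a. With a minimum count of 30 it was 2 of 22 (8.38%). Limma-voom gave 3 of 54 (9.58%), and the fit without the batch term 0 of 54 (5.33%). Leaving out a library gave 1 to 2 (5.43% to 10.7% of all features). The count called between the batches, 11 of 54 as reported (3.93% of all features in either direction), also varied. It was 19 of 167 without the filter (5.59%), 6 of 22 with a minimum count of 30 (4.2%) and 17 of 54 with DESeq2 (8.27%). It was 15 of 54 with limma-voom (5.05%) and 13 of 54 with library totals (4.23%). Leaving out a library gave 0 to 11. Beside those named above, it was 7 of 56 without isolated males replicate 0 (2.66%) and 6 of 61 without isolated females replicate 1 (1.96%). Without group-housed males replicates 1 and 2 it was 4 of 61 (2.21%) and 5 of 58 (2.84%). The cause was not tested. The fewest receptors detected in a library, 39, became 11 at a minimum of 10 counts. Library totals moved the median of all features by -0.14 (log2) between batches.

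Over 1542 comparisons of 70 single-gene results with other settings, 1447 kept direction and call, 79 lost the call, 8 gained it and 8 turned in sign. The turns were all in estimates far from the threshold: between female groups Gr28b at 0 (library totals) and -0.34 (without isolated females replicate 0), Orco at 0.02 (isolated females by replicate 0 alone), Ir93a at 0.58 and 0.01 (without isolated females replicates 0 and 1), Ir76b at 0.01 (without replicate 1) and Gr33a at 0.05 (without replicate 2), and between male groups Ir8a at -0.04 (without group-housed males replicate 1). Leaving out a library gave -0.34 to 0.55 for Gr28b, -1.7 to 0.58 for Ir93a, -0.46 to 0.01 for Ir76b, -0.7 to 0.05 for Gr33a and -0.04 to 0.69 for Ir8a. Replicate numbers were not taken as pairs, because pairs of numbers 1 and 2 went below a correlation of 0.1 and number 0 is the batch 1 label, already a term of the fit. Deviations of same-numbered libraries correlated at 0.249 to 0.508 for number 0, -0.188 to 0.172 for number 1 and -0.0303 to 0.423 for number 2, and 8 of 12 libraries correlated best with their own number, a hint from the data and not from the design. With the replicate block, Ir68a passed beside Ir31a between the sexes. Depth limits the low receptors: 131 of 185 were not tested, and in isolated females replicate 1 the floor of 3 counts was 1.16 CPM.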

Other observations

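Gr9a, an untested gustatory receptor chosen after its values were seen, had 17 counts in 15446262 from isolated females (1.10 CPM, exact Poisson 95% interval 0.641 to 1.76), 2 in 28893829 from group-housed females and 0 in 60466005 from all 6 male libraries. By the pooled value isolated females were 22.2-fold above the male floor of 0.0496 CPM (3 counts over the 6 libraries). By the lower limit of that interval they were 12.9-fold above it. The ratio of isolated to group-housed females was 15.9 (95% interval 3.77 to 142, counting error only). Of the 17 counts, 13 came from isolated females replicate 0. Without it, within batch 2, the level was 4 counts in 5808535 (0.689 CPM, interval 0.188 to 1.76). This was 13.9-fold above the male floor, or 3.78-fold by the lower limit. The ratio to the group-housed females of that batch was 4.05 (interval 0.581 to 44.8). In the fit without a filter on low counts Gr9a gave an edgeR adjusted p of 0.398 between the female groups and 0.0360 between females and males. That fit called 2.43% and 7.6% of all features in these comparisons. Gr9a lies inside CG15312, on the other strand, which was measured at 184 CPM and had a log2 fold change of 0.14 (SE 0.15) between the female groups.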
